A study of Mus musculus with 8 samples.

Results

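The subunits of the oxidative phosphorylation complexes were described in T cells of MRL/lpr mice, which have the lpr mutation in the death receptor gene Fas and are used as a model of lupus nephritis. Genes were taken by symbol (Nduf followed by a, b, c, s or v and a number, Sdha to Sdhd, and symbols that begin with Uqcr, Cox4 to Cox8 or Atp5). This gave 79 of the 13341 genes in the table: 36 for complex I, 4 for complex II, 8 for complex III, 14 for complex IV and 17 for complex V. At 14 weeks of age, CD8+ and CD4+ T cells with high CD44, a surface mark of antigen experience, were sorted from kidney and from spleen. The groups were kidney CD8, kidney CD4, spleen CD8 and spleen CD4 cells, each with 2 libraries. All 4 groups carried the lpr mutation, and none came from a healthy strain. The labels do not say whether replicates were separate mice or pools, so p-values measure only the spread between these libraries, which may be technical. Libraries held 7477544 to 11169003 reads. A level is the authors' read count after scaling between libraries, and 1 read was worth 0.554 to 1.04 of it.

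Oxidative phosphorylation takes place in the inner mitochondrial membrane. Complex I accepts electrons from NADH and complex II accepts them from succinate. Complex III passes them to cytochrome c and complex IV to oxygen, and complex V makes ATP from the proton gradient. Activated T cells use glycolysis and oxidative phosphorylation together, and long-lived memory cells are known to depend on mitochondrial respiration. Each complex except complex II joins subunits from the nucleus with subunits from mitochondrial DNA. Only nuclear genes are described, and the mitochondrial genes were not analysed here. Atp5s and Atp5sl meet the symbol rule but are not structural subunits of complex V. Ndufa4 carries a complex I name, though the protein was later found in complex IV.

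Many nuclear genes of these complexes are known to be bound by NRF1, by GABP, an ETS-family factor, and by YY1. RefSeq promoters (GRCm38.p6, 250 bases before to 50 after the start) were matched by symbol for 67 of the 79 genes. The NRF1 core GCGCATGC, searched on both strands, was in 14.9% of them, against 3.6% of the promoters of 17491 protein-coding genes. The ETS core CCGGAAG was in 22.4% against 11.9%, and the YY1 motif AAGATGGCG in 10.4% against 1.9%. At least 1 of the 3 motifs was in 27 of the 67 promoters (40.3%), against 16.3% of protein-coding promoters, and 40 held none. In GCGCATGCGC the NRF1 core is read on both strands at overlapping positions. These are matches of letters and do not show binding. The 250 bases upstream of 4 start sites are printed as examples of promoters that hold a motif. Atp5b, Atp5d and Ndufa5, also described below, held none of the 3 motifs. Whether the motifs go with the levels was not tested. Capitals mark the NRF1 core in Ndufa6 (chr15:82354292-82354541, minus strand) and Atp5k (chr5:108434400-108434649, minus strand), the NRF1 and ETS cores in Cox6a1 (chr5:115348959-115349208, minus strand) and the ETS core in Ndufb7 (chr8:83566508-83566757, plus strand).
Ndufa6: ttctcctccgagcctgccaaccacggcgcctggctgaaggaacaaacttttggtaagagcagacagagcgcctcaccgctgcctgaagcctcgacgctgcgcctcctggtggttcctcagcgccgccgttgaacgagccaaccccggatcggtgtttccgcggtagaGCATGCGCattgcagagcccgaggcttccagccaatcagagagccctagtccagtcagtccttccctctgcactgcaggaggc
Cox6a1: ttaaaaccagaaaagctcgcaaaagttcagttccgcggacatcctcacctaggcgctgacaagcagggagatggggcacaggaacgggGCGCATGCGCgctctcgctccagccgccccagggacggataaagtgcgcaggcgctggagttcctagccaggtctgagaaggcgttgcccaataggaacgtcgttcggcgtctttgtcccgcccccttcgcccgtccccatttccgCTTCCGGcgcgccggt
Atp5k: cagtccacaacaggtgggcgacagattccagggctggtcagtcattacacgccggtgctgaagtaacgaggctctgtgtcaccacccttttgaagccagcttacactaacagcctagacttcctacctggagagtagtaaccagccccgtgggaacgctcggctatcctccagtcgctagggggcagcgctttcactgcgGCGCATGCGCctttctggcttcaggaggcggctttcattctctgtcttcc
Ndufb7: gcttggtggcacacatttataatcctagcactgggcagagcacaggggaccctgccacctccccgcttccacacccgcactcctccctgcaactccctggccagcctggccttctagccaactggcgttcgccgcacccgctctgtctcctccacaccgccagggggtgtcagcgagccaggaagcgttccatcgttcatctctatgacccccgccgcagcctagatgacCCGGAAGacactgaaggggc

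Per kilobase of transcript, the most abundant subunit genes were Cox4i1 of complex IV (mean level 20390 per kilobase over the 8 libraries), Uqcrh of complex III (13370) and Ndufa1 of complex I (7945). Complex V was led by Atp5c1, the gamma subunit (7119), and complex II by Sdhb, the iron-sulfur subunit (2746). The median level per kilobase of the genes of a complex was 1514 for complex I, 1188 for II, 3718 for III, 2282 for IV and 3537 for V. Of 79 genes, 70 had a level of at least 100 in every library. Lowest were muscle-type or testis-type isoforms, Cox6a2 (3.08 per kilobase) and Cox6b2 (16.6), and also Ndufb2 (20.3) and Atp5s (20.5). Cox6a2 reached a level of 10.4 in 1 kidney CD4 library and at most 2.31 elsewhere, so 78 genes passed the filter on low levels (at least 10 in at least 2 libraries) and were tested.

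Together the 79 genes took 2.78% and 2.66% of the reads in the kidney CD8 libraries, 1.91% and 3.27% in kidney CD4, 2.43% and 2.27% in spleen CD8, and 2.37% and 2.42% in spleen CD4. Both the lowest and the highest share were in kidney CD4. In replicate 1 of kidney CD4 every complex except II took a smaller share than in each spleen library, and in replicate 2 a larger one. Complex II took 0.129% and 0.119% of reads in kidney CD4, against 0.122% and 0.118% in spleen CD4. The kidney CD4 replicates are therefore given apart beside the pooled comparisons.

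**Figure D1:**
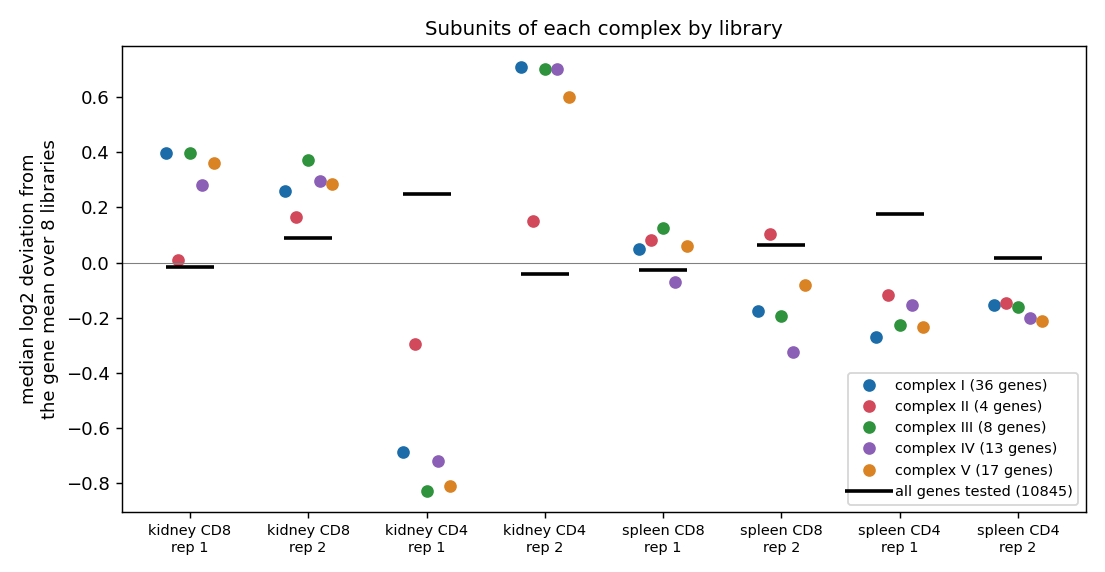
Median log2 deviation of the subunit genes of each complex (coloured points) and of all genes tested (black bars) from each gene's mean over the 8 libraries, by library. Complexes I, III, IV and V sit between -0.69 and -0.83 in kidney CD4 replicate 1 and between 0.60 and 0.71 in replicate 2.

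Between the kidney CD4 replicates, 65 of 78 subunit genes were higher in replicate 2, with a median log2 difference of 1.41. Of all genes tested, 43.0% were higher in replicate 2, with a median of -0.26. The difference was smaller in the other groups: the median of the subunit genes was -0.12 between kidney CD8 replicates, -0.18 between spleen CD8 replicates and 0.06 between spleen CD4 replicates. Most of these transcripts are short. Their median length was 838 nt (range 351 to 3171), against 2614.5 nt for genes tested that have a length, and 46.8% were under 750 nt, against 4.0% of the genes tested. In kidney CD4 the median difference of all genes under 750 nt was 1.43, close to 1.54 for the 36 tested subunit genes of that size. For 750 to 1249 nt the median was 1.52 for 21 subunit genes and 0.92 for all genes. For 1250 to 1999 nt it was 0.56 for 14 subunit genes and -0.51 for all genes. The 7 subunit genes of 2000 nt or more had a median of -1.92, against -0.50 for all genes of that length. The longest subunit genes thus differed in the opposite direction to the shorter ones, and 2 of the 7 were higher in replicate 2. In kidney CD8 the medians of the subunit genes in these 4 classes lay between -0.17 and 0.34.

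Of the 13 genes lower in kidney CD4 replicate 2, 9 were 1250 nt or longer. They include Uqcrc1 and Uqcrc2, the core proteins of complex III, Ndufs1 and Ndufv1, core subunits of the NADH-oxidising arm of complex I, Sdha, the flavoprotein of complex II, and Atp5a1, the alpha subunit of ATP synthase. Uqcrc1 showed the widest gap: its level was 4064 in replicate 1 and 190 in replicate 2, a log2 difference of -4.41. Sdha was at 3015 in replicate 1 and 610 in replicate 2. Cox6a1, Cox8a, Cox5b and Ndufa6 were the exceptions among short transcripts, at 545 to 571 nt. Their log2 differences were -3.84, -2.98, -1.39 and -1.31. Median GC content of the 13 genes was 53.0% of transcript bases, against 52.2% for the 65 genes higher in replicate 2.

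**Figure D2:**
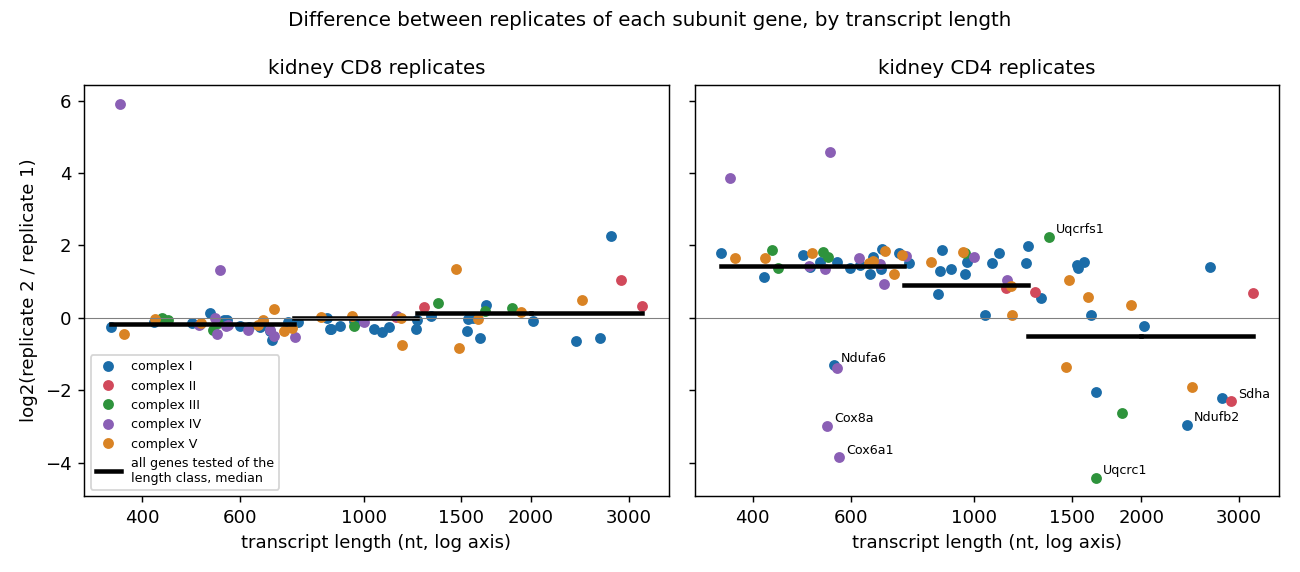
Log2 ratio of replicate 2 to replicate 1 for each subunit gene against transcript length (log axis), in kidney CD8 (left) and kidney CD4 (right), with the median of all genes tested in 4 length classes as black lines. In kidney CD4 the subunit genes under 750 nt have a median of 1.54 and Uqcrc1 lies at -4.41, while in kidney CD8 the median of all subunit genes is -0.12.

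Cox5b, Cox6a1, Cox8a, Ndufb2 and Ndufa10 had the same signs of difference between replicates in all 4 groups. In these 5 genes replicate 1 was higher in kidney CD8, kidney CD4 and spleen CD4, and replicate 2 was higher in spleen CD8. This pattern of signs was taken from the values of Cox6a1, after they were seen. It was held by 5 of 78 subunit genes, against 9.43% of all genes tested, so it was not more frequent among subunit genes. Cox6a1, a subunit of complex IV, had levels of 1050 and 910 in kidney CD8, 2419 and 168 in kidney CD4, 1316 and 3409 in spleen CD8, and 3043 and 1763 in spleen CD4. Cox8a had 339 and 248 in kidney CD8, 1150 and 145 in kidney CD4, 317 and 1560 in spleen CD8, and 861 and 396 in spleen CD4. For both genes the gap between any 2 group mean levels was smaller than the gap between replicates within kidney CD4 and within spleen CD8.

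**Figure D3:**
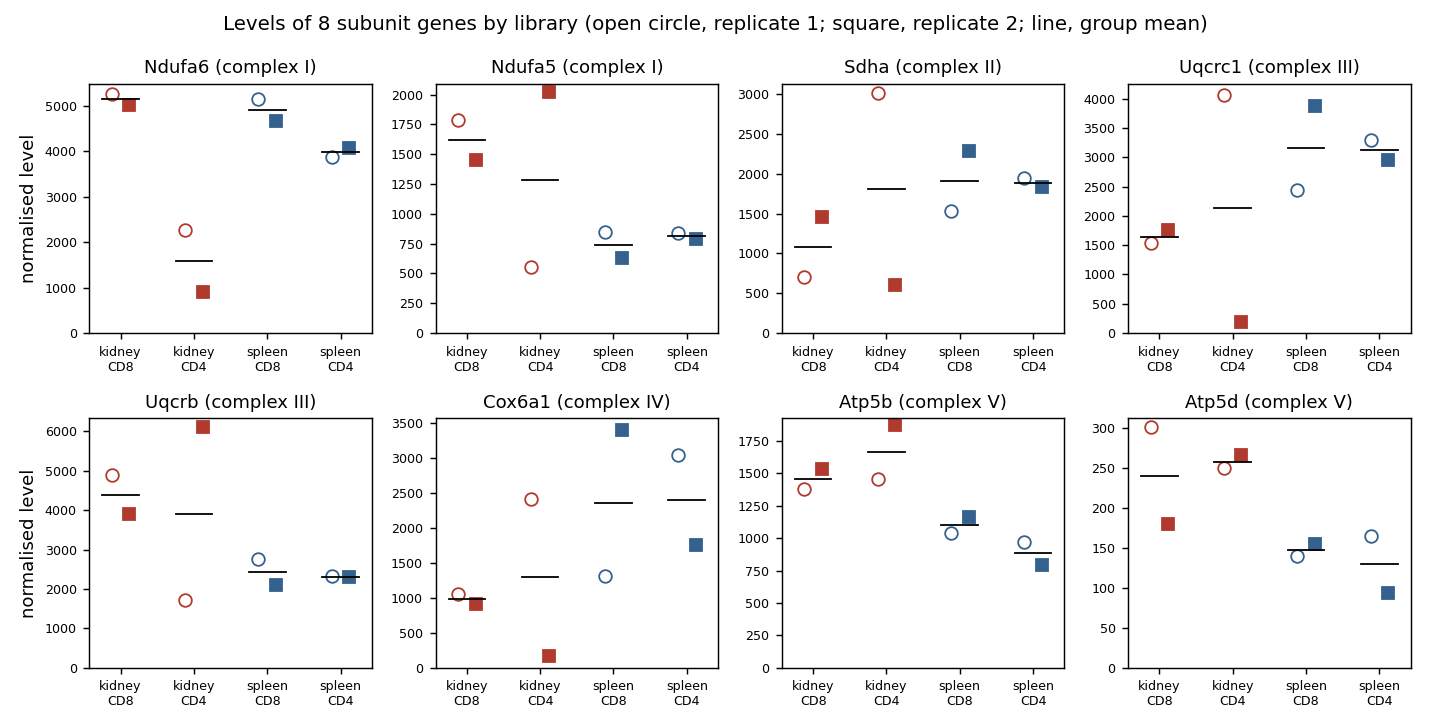
Normalised level of 8 subunit genes in each library (linear axes from 0), with kidney groups in red, spleen groups in blue, replicate 1 as open circles, replicate 2 as squares and group means as lines. Ndufa6 is lowest in the 2 kidney CD4 libraries, while Uqcrc1 and Sdha are high in one kidney CD4 library and low in the other.

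In kidney CD4 cells against spleen CD4 cells no subunit gene passed the test (limma on log2(level + 1), Benjamini-Hochberg adjusted p below 0.05 over 10845 genes), and 3 had an unadjusted p below 0.05. Of all genes tested, 0.959% passed, and 988 of the 10845 had an unadjusted p below 0.05. edgeR on the recovered reads called 0 subunit genes and DESeq2 called 1, Ndufa6. The share of all genes that these tools called is not given here, and the share above is that of limma. The log2 fold change was above 0 for 58 of 78 genes, with a median of 0.16, against -0.08 for all genes. That median was 0.40 in edgeR and 0.47 in DESeq2 (0.03 and 0.08 for all genes), and 0.02 with scaling to total reads (-0.22 for all genes). By complex the median was 0.23 for I, -0.04 for II, 0.10 for III, 0.15 for IV and 0.12 for V. Both kidney levels were above both spleen levels for 5 subunit genes (6.4%), where 16.3% of all genes were, and below both for 3 (3.8%), where 15.6% were. Atp5b, Atp5d and Ndufa10 were among the genes on the higher side, and Ndufa6, Atp5s and Atp5sl were on the lower side.

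The 2 kidney CD4 libraries gave opposite directions when set apart. Replicate 1 lay above both spleen CD4 libraries for 13 of 78 genes, where 4884 of all 10845 genes did. It lay below both for 59, where 3792 of all genes did. Its median log2 difference from the spleen mean was -0.48 (0.13 for all genes). Replicate 2 lay above both for 63, where 36.7% of all genes did, and below both for 13, where 45.4% did. Its median was 0.88 (-0.13 for all genes). Complexes I, III, IV and V followed this order, with medians of -0.44, -0.54, -0.45 and -0.53 in replicate 1 and of 0.94, 0.91, 0.87 and 0.87 in replicate 2. Complex II had the smallest medians, -0.11 and 0.31, but its 4 genes went both ways. Sdha was at 0.68 in replicate 1 and -1.63 in replicate 2. Sdhb, Sdhc and Sdhd were below 0 in replicate 1 and above 0 in replicate 2. The complex II transcripts were 1142 to 3171 nt long, so none was in the class under 750 nt.

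The test depended on the same libraries. Without replicate 1 of kidney CD4, with the remaining library assumed to vary like the other groups, 50 subunit genes passed as higher in kidney, where 7.41% of all genes did, and 7 passed as lower, where 14.1% did. The 50 were 24 of 36 genes of complex I, 1 of 4 of complex II, 6 of 8 of complex III, 7 of 13 of complex IV and 12 of 17 of complex V. The 7 lower genes were Uqcrc1, Uqcrc2, Ndufa6, Ndufv1, Cox6a1, Atp5a1 and Sdha. Without replicate 2, 0 passed as higher (1.42% of all genes) and 2 as lower (1.34%), Ndufa6 and Uqcr10. Ndufa6 was the gene that passed as lower in both cases.

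**Figure D4:**
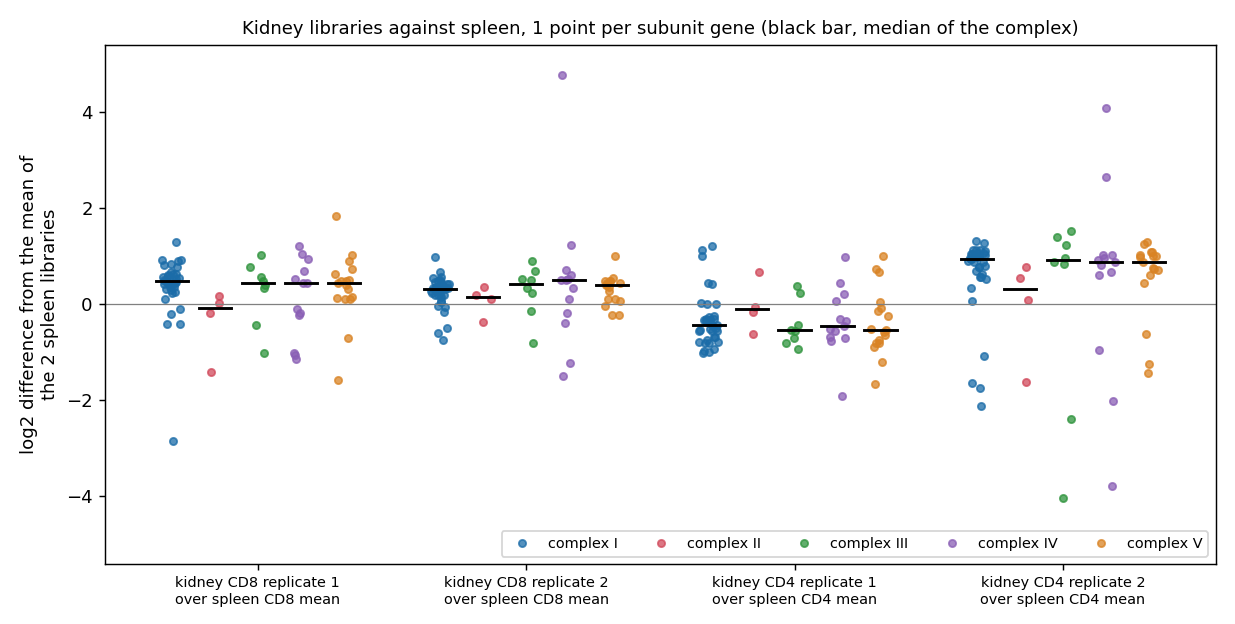
Log2 difference of each kidney library from the mean of the 2 spleen libraries of the same cell type, with 1 point per subunit gene and a black bar at the median of each complex. The medians of complexes I, III, IV and V lie between 0.32 and 0.50 in both kidney CD8 libraries, between -0.54 and -0.44 in kidney CD4 replicate 1 and between 0.87 and 0.94 in replicate 2.

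Ndufa6, an accessory subunit of complex I, lies on chromosome 15 (mm9, 82180569 to 82184721, minus strand). Its level was 5273 and 5027 in kidney CD8, 2259 and 912 in kidney CD4, 5143 and 4667 in spleen CD8, and 3879 and 4078 in spleen CD4. The 2 kidney CD4 libraries were below all 6 others. In kidney CD4 against spleen CD4 its log2 fold change was -1.47 ± 0.45 (SE), 0.361-fold, with a limma adjusted p of 0.265. In DESeq2 it was -1.36 ± 0.42 (adjusted p = 0.0428). Its limma adjusted p was 1.51e-04 without kidney CD4 replicate 1 and 0.0469 without replicate 2.

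Atp5b, the catalytic beta subunit of complex V, lay on the other side (chromosome 10, mm9, 127520329 to 127527447, plus strand). Its level was 1454 and 1869 in kidney CD4, against 972 and 790 in spleen CD4. It was 1376 and 1529 in kidney CD8, against 1037 and 1166 in spleen CD8. Kidney and spleen levels did not overlap in either cell type. The log2 fold change was 0.91 ± 0.33 in CD4 cells (limma adjusted p = 0.387) and 0.40 ± 0.33 in CD8 cells (limma adjusted p = 0.750). Atp5d, the delta subunit (chromosome 10, mm9, 79601377 to 79608563, plus strand), had 250 and 266 in kidney CD4, against 165 and 94.0 in spleen CD4. It had 302 and 180 in kidney CD8, against 140 and 156 in spleen CD8. Its log2 fold changes were 1.04 ± 0.45 in CD4 cells (limma adjusted p = 0.539) and 0.66 ± 0.45 in CD8 cells (limma adjusted p = 0.698). An exon of Atp5d overlaps Dos on the opposite strand. The libraries keep no strand, so reads of the overlap cannot be assigned.

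In kidney CD8 cells against spleen CD8 cells the subunit genes were more often apart. Both kidney levels were above both spleen levels for 54 of 78 genes, where 26.7% of all genes tested were, and below both for 10, where 24.4% were. The log2 fold change was above 0 for 63 of 78 genes, with a median of 0.37, against 0.00 for all genes. By complex the median was 0.37 for I, 0.07 for II, 0.44 for III, 0.52 for IV and 0.40 for V. No subunit gene passed the limma test, where 1.55% of all genes did, and edgeR and DESeq2 also called 0. At an unadjusted limma p below 0.05 there were 0 of 78, where 1147 of all 10845 genes were. With TMM scaling 47 genes were apart as higher and 10 as lower, where 24.9% and 26.6% of all genes were, and with scaling to total reads 52 and 11, where 24.3% and 27.7% were.

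The spread in this fit is shared by all 8 libraries, the unlike kidney CD4 libraries among them. With both kidney CD4 libraries left out, an alternative chosen after seeing the data, 5 subunit genes passed as higher (4.4% of all genes) and 1 as lower (2.47%). Without kidney CD4 replicate 1 alone, 5 passed as higher (4.45%) and 1 as lower (2.34%), and without replicate 2 alone, 4 (4.3%) and 1 (2.38%). With 5 of 78, the share of subunit genes that passed as higher was close to that of all genes. In the fit without both kidney CD4 libraries the higher genes were Ndufa5, Ndufb7 and Ndufb8, accessory subunits of complex I, Uqcrb of complex III and Cox6c of complex IV, and the lower one was Uqcrc1. Cox6c was the gene not called without replicate 2 alone.

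Ndufa5 had the largest log2 fold change of complex I, with levels of 1789 and 1453 in kidney CD8, against 846 and 630 in spleen CD8 (log2 fold change 1.14, SE 0.56, limma adjusted p = 0.533 with all libraries, and 0.0128 without the kidney CD4 libraries). Uqcrb had 4893 and 3894 in kidney CD8, against 2754 and 2106 in spleen CD8 (0.86 ± 0.56). Ndufb7 had 2849 and 2397 in kidney CD8, against 1615 and 1405 in spleen CD8 (0.80 ± 0.48). In these 3 genes the kidney levels lay above the spleen levels by more than the gap between replicates.

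The 10 genes with both kidney CD8 levels below both spleen CD8 levels included 8 of 1250 nt or longer. They were Ndufs1, Ndufv1 and Ndufa9 of complex I, Sdha of complex II, Uqcrc1 and Uqcrc2 of complex III, Cox6a1 and Cox7a2l of complex IV, and Atp5a1 and Atp5sl of complex V. Ndufs1 had the most negative log2 fold change, -1.73 ± 0.88 (limma adjusted p = 0.551), at 34.0 and 165 in kidney CD8, against 207 and 307 in spleen CD8. Uqcrc1 had 1535 and 1753 in kidney CD8, against 2449 and 3877 in spleen CD8 (-0.91 ± 1.13, limma adjusted p = 0.855).

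By length, the kidney CD8 to spleen CD8 median log2 fold change was 0.42 for subunit genes under 750 nt, against 0.29 for all genes of that size. It was 0.48 for subunit genes against 0.18 for all genes at 750 to 1249 nt, 0.19 against -0.03 at 1250 to 1999 nt, and -0.46 against -0.04 at 2000 nt or more. With each library's trend on transcript length removed, the median over the 78 genes was 0.02 in kidney CD8 against spleen CD8, with 42 above 0, and -0.00 in kidney CD4 against spleen CD4, with 39 above 0, pooled over the unlike kidney CD4 replicates.

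Kidney libraries also held transcripts of kidney epithelium, a tissue rich in mitochondria. The summed level of 15 proximal tubule markers was 6153 and 24490 in kidney CD8 and 9086 and 20930 in kidney CD4, against 88.2 and 139 in spleen CD8 and 543 and 410 in spleen CD4. Miox and Fbp1, defining markers of that tubule, had 0 reads in every spleen library. The spleen sums were almost all Ass1, at 87.5 and 135 in spleen CD8 and 534 and 410 in spleen CD4. The part of this RNA in the levels of the subunit genes was not tested. Between kidney CD8 replicates the tubule sum was 3.98-fold in replicate 2 while the summed level of the subunit genes was 0.914-fold (217400 in replicate 1 and 198700 in replicate 2). Between kidney CD4 replicates the ratios were 2.30-fold and 2.13-fold. The tubule markers went both ways. Miox had 1281 and 5964 in kidney CD4, and Fbp1 had 781 and 3666. Keg1, Ass1, Slc22a6, Slc5a2 and Cyp2e1 were lower in kidney CD4 replicate 2, with Keg1 at 1207 and 1044 and Ass1 at 624.5 and 141.5. In kidney CD8, Slc22a6 and Aqp1 were lower in replicate 2. Distal nephron markers (7 genes) summed to 1783 and 4712 in kidney CD8 and 1026 and 9694 in kidney CD4, against 67.3 and 62.1 in spleen CD8 and 3.33 and 6.90 in spleen CD4. The kidney sums were mostly 1 gene, Fxyd2, at 1721 and 4549 in kidney CD8 and 959 and 9501 in kidney CD4. The spleen CD8 sums were mostly Atp1b1, at 62.6 and 59.2, against 49.2 and 64.0 in kidney CD8. Spleen libraries held more of other blood cells: 9 neutrophil markers summed to at most 29.6 in kidney libraries, against 3672 to 9376 in spleen libraries, and 8 erythroid markers to at most 338 in kidney, against 11650 to 21950 in spleen. Macrophage markers (8 genes) summed to 2353 and 1790 in kidney CD8 and 6792 and 6513 in kidney CD4, against 841 and 1446 in spleen CD8 and 1681 and 2254 in spleen CD4. The kidney sums were mostly Lyz2 and C1qb, and single markers went both ways. Cd68 had 258 and 485 in kidney CD4, against 559 and 519 in spleen CD4. Lyz2 overlapped in CD8 cells, at 1235 and 921 in kidney, against 443 and 976 in spleen. B cell markers (4 genes) summed to between 182 and 247 in kidney libraries, against between 368 and 978 in spleen libraries. In such bulk libraries fewer cells of a type and less RNA per cell cannot be told apart. Cd4 and Cd8a followed the labels, with Cd8a at 18300 and 18560 in kidney CD8, 103 and 5.20 in kidney CD4, 12160 and 12190 in spleen CD8, and 1.11 and 2.59 in spleen CD4. Summed over 8 T cell markers, the level was 68590 in kidney CD4 replicate 1 and 81330 in replicate 2, but the markers went both ways. Cd3d and Cd3g, CD3 chains, had 10080 and 24540 in the first library and 26730 and 48410 in the second, while Cd3e and Lck had 5456 and 24570 in the first and 637 and 2813 in the second.

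In kidney CD8 cells against kidney CD4 cells the log2 fold change was above 0 for 63 of 78 subunit genes, with a median of 0.38, against 0.03 for all genes. The median was smaller in the count models, 0.14 in edgeR and 0.10 in DESeq2, each against -0.06 for all genes. All 8 genes of complex III were above 0, with a median of 0.54. The groups were apart for few genes, 7 as higher (13.8% of all genes) and 1 as lower (14.1%). The 7 were Ndufa6, Ndufa1, Ndufs3, Sdhc, Cox5a, Atp5k and Atp5s, and the 1 was Ndufa10. No subunit gene passed the limma test, where 0.203% of all genes did. At an unadjusted limma p below 0.05 there was 1 of 78, Ndufa6, where 923 of all 10845 genes were. edgeR called 0. Ndufa6 had a log2 fold change of 1.84 ± 0.45, 3.59-fold (limma adjusted p = 0.227), and DESeq2 called it (1.78 ± 0.42, adjusted p = 0.00305). The share of all genes that DESeq2 called is not given here either. Atp5k, the e subunit of complex V, had 969 and 705 in kidney CD8, against 218 and 683 in kidney CD4 (1.10 ± 0.54, limma adjusted p = 0.639). Sdhc, a membrane anchor of complex II, had 1209 and 1529 in kidney CD8, against 652 and 1053 in kidney CD4 (0.71 ± 0.36, limma adjusted p = 0.649).

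This comparison too took its direction from 1 library. Without kidney CD4 replicate 1 the median was -0.33, with 18 genes above 0, and 6 passed as higher in CD8 (9.1% of all genes) and 2 as lower (1.78%). Without replicate 2 the median was 1.07, with 64 genes above 0, and 46 passed as higher (6.33%) and 2 as lower (6.13%). Uqcrc1 passed in both fits with opposite signs, at 3.10 ± 0.27 (limma adjusted p = 2.50e-04) and -1.31 ± 0.27 (limma adjusted p = 0.0205). Ndufa6 passed as higher in CD8 in both.

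In spleen CD8 cells against spleen CD4 cells the differences were small. The median log2 fold change was 0.13, against -0.05 for all genes, and 59 of 78 genes were above 0. Both CD8 levels were above both CD4 levels for 29 genes, where 19.8% of all genes were, and below for 3, where 26.0% were. With scaling to total reads 8 genes (10.3%) were apart as higher and 14 (17.9%) as lower, where 12.4% and 36.4% of all genes were. The median was then -0.05, against -0.24 for all genes, so the sign of the median changed with the scaling while it stayed above that of all genes. No subunit gene passed, where 0.36% of all genes did, and edgeR and DESeq2 called 0. At an unadjusted limma p below 0.05 there were 0 of 78, where 697 of all 10845 genes were. The c-ring genes of complex V lay on the higher side with the authors' scaling. Atp5g1 had 2547 and 2079 in spleen CD8, against 1758 and 1590 in spleen CD4. Atp5s, named coupling factor B, was apart on the lower side, at 16.2 and 14.3 in spleen CD8, against 36.0 and 49.2 in spleen CD4 (-1.41 ± 0.69, limma adjusted p = 0.869).

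The organ difference was then compared between cell types, as the organ effect in CD8 minus the organ effect in CD4. Its median over the subunit genes was 0.26, against 0.11 for all genes, and 53 of 78 genes were above 0. In edgeR the median was -0.07 and in DESeq2 -0.11, so the direction depended on the tool. None passed the limma test, as 0.0% of all genes did. At an unadjusted limma p below 0.05 there were 2 of 78, Atp5s and Ndufa6, where 362 of all 10845 genes were. edgeR and DESeq2 called 0. For Atp5s the value was 2.56 ± 0.98 (limma adjusted p = 0.999). Its level was 56.9 and 31.6 in kidney CD8, against 16.2 and 14.3 in spleen CD8, and 12.7 and 27.1 in kidney CD4, against 36.0 and 49.2 in spleen CD4. The order of the organs was thus reversed between CD8 and CD4 at these low levels. For Ndufa6 it was 1.54 ± 0.63 (limma adjusted p = 0.999). Without kidney CD4 replicate 1, 5 genes passed as higher (5.98% of all genes) and 0 as lower (0.885%): Ndufa6, Ndufv1, Uqcrc1, Uqcrc2 and Cox6a1.

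The complex II genes differed among themselves. Sdha, the succinate-oxidising flavoprotein with a transcript of 2900 nt, had 705 and 1457 in kidney CD8, 3015 and 610 in kidney CD4, 1537 and 2291 in spleen CD8, and 1943 and 1830 in spleen CD4. Sdhb, of 1142 nt, had 3215 and 3272 in kidney CD8, 2652 and 4720 in kidney CD4, 2763 and 2954 in spleen CD8, and 2676 and 2837 in spleen CD4. Sdhd, the other membrane anchor, had 2215 and 2704 in kidney CD8, 1761 and 2867 in kidney CD4, 2475 and 2565 in spleen CD8, and 1902 and 2026 in spleen CD4. The lowest limma adjusted p of the 4 genes was 0.649, for Sdhc in kidney CD8 against kidney CD4.

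In complex IV the muscle or testis isoform was below the other forms of its set in every library. The values per kilobase given here are means over the 8 libraries. Cox6a1 had 3082 per kilobase on average, against 3.08 for the muscle form Cox6a2, and Cox6b1 7304, against 16.6 for the testis form Cox6b2. Cox7a2 had 2839 and Cox7a2l, a factor of supercomplex assembly, 4665, against 34.7 for the muscle form Cox7a1. Cox7a1 had a level of 0 and 59.4 in kidney CD8, 1.41 and 34.3 in kidney CD4, 0.673 and 1.91 in spleen CD8, and 3.33 and 0 in spleen CD4. It had the largest log2 fold change of complex IV in both organ comparisons, 1.82 ± 2.06 in CD8 and 2.15 ± 2.06 in CD4 (limma adjusted p = 0.839 and 0.830), carried by replicate 2 alone in each. These replicates are also those with the higher sum of tubule markers, though single markers went both ways. The part of tubule RNA was not tested. Cox5a, at 122 per kilobase, was below Cox5b, at 518, which are partners in the complex and not alternatives. The other forms Cox4i2, Cox7b2, Cox8b, Cox8c and Ndufa4l2 were not analysed here. The c-ring genes Atp5g1, Atp5g2 and Atp5g3, which code for the same mature protein, had 3371, 5230 and 3821 per kilobase. Reads of these close copies, and of pseudogene copies of subunit genes, may have been shared by the counting, which is not described, so their levels are uncertain. An exon of 18 of the 79 genes overlaps another annotated gene, on the opposite strand for 17 of them.

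Other genes of the pathway behaved as follows. A list of 6 subunits, carriers and associated proteins outside the symbol rule included cytochrome c (Cycs). All 6 were tested and none passed in any comparison. Each had a log2 fold change above 0 in both organ comparisons, with a median of 0.50 in CD8 and 0.50 in CD4. The CD4 value pooled opposite libraries. Kidney CD4 replicate 1 was below both spleen CD4 libraries for all 6 genes, where 3792 of all 10845 genes were. The median log2 difference of the 6 from the spleen mean was -0.38. Kidney CD4 replicate 2 was above both for all 6 (median 1.37), where 3982 of all 10845 genes were. Both kidney CD8 levels were above both spleen CD8 levels for 4 of the 6, where 26.7% of all genes were. Cycs had 5688 and 6515 in kidney CD8, 3639 and 9359 in kidney CD4, 5161 and 4204 in spleen CD8, and 4021 and 3722 in spleen CD4. Atpif1, the inhibitor of ATP synthase, had 1519 and 1600 in kidney CD8, against 715 and 616 in spleen CD8 (1.23 ± 0.53). Of 50 assembly factors 46 were tested and none passed, with a median log2 fold change of 0.24 in kidney CD8 against spleen CD8 and -0.12 in kidney CD4 against spleen CD4. Apart, the kidney CD4 replicates had medians of -0.38 and 0.39. The lowest adjusted p among them was shared by 2 genes of opposite direction. Ndufaf1, which assembles complex I, had 122 and 103 in kidney CD4, against 267 and 203 in spleen CD4 (-1.05 ± 0.40, limma adjusted p = 0.436). Cox11, a copper assembly factor of complex IV, had 15.5 and 12.5 in kidney CD4, against 3.33 and 1.73 in spleen CD4 (2.12 ± 0.81, limma adjusted p = 0.436).

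Of 22 regulators of mitochondrial biogenesis, 21 were tested and 1 passed in any comparison. Gabpb1, the beta partner that joins Gabpa to form the ETS-family factor GABP, was higher in kidney CD8 than in spleen CD8. Its level was 195 and 278 in kidney CD8, against 39.7 and 55.4 in spleen CD8 (log2 fold change 2.29 ± 0.42, limma adjusted p = 0.0388), where 1.55% of all genes passed. It was 312 and 341 in kidney CD4, against 83.1 and 82.8 in spleen CD4 (1.96 ± 0.42, limma adjusted p = 0.0908). The 4 kidney levels were all above the 4 spleen levels. The CD8 call was lost with scaling to total reads (adjusted p = 0.0644), in a fit of just the 4 CD8 libraries (adjusted p = 0.0694), and without any 1 of the kidney CD8, spleen CD8 or spleen CD4 libraries (adjusted p = 0.121 to 0.3996), with log2 fold changes of 2.03 to 2.54. Over all alternatives its adjusted p was 7.72e-05 to 0.3996. Gabpa, named after its values were seen as the partner of Gabpb1, had 108 and 92.5 in kidney CD8, 106 and 27.1 in kidney CD4, 101 and 47.8 in spleen CD8, and 97.0 and 79.4 in spleen CD4. The median log2 fold change of the 21 regulators was -0.25 in kidney CD8 against spleen CD8 and -0.69 in kidney CD4 against spleen CD4. Each kidney CD4 library set apart gave a median near 0, at 0.01 and -0.00.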

How the data were processed

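Values are a normalised signal (a read count over a size factor per library), deposited by the authors as a table of gene symbols. Dividing by the value of 1 read gave whole reads for 100% of values (tolerance 1e-06), so edgeR 4.0.16 and DESeq2 1.42.0 could be run on recovered counts as alternatives. The genome was mm9, per the labels. The submitters' processing notes name the aligners STAR 2.5.3 and TopHat2 2.1.0. Counting tool and gene models: not given in the sources used here. RNA was isolated with a micro-scale kit and libraries were made with SMART-Seq v4, per the labels' protocols.

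The 10845 genes that reached a level of 10 in 2 or more libraries were fitted with limma 3.58.1 in R 4.3.3 on log2(level + 1), as 4 group means over all 8 libraries, with an intensity trend, 2-sided, and Benjamini-Hochberg adjustment within each of 5 comparisons. The 4 residual degrees of freedom became 8.48. Fold changes on this scale understate those of genes at low levels. Scripts were tested on simulated data. Symbols were matched to an mm9 annotation for lengths (median over transcripts with the longest coding sequence, 12069 of 13341 matched) and GC content. The members, gene lists and tests were chosen with earlier results of these data known. Named genes were Ndufa6, Atp5b and Atp5d, per complex the most abundant and those with the largest and smallest fold change in each organ comparison, isoform pairs, complex II, and up to 4 of each other list by adjusted p. Other members named were chosen after their values were seen. All 8 columns were used. Depth limits low genes such as Cox7a1 and Atp5s.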

Additional observations from a re-analysis of the deposited data

How the results depend on the processing

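No subunit gene passed limma's test with all 8 libraries in any comparison. The same count of 0 was found with edgeR, pseudocounts of 0.5 and 5, no filter or a level of at least 50, TMM scaling or total reads, the compared libraries alone, library weights and the length trend removed. DESeq2 called 1 gene as lower in kidney CD4 against spleen CD4 and 1 as higher in kidney CD8 against kidney CD4, Ndufa6 in both cases. The share of all genes that DESeq2 called is not given, and the cause was not tested. Leaving out 1 library at a time gave 0 to 50 genes higher and 0 to 7 lower in kidney CD4 against spleen CD4, 0 to 46 higher and 0 to 2 lower in kidney CD8 against kidney CD4, 0 to 5 higher and 0 to 1 lower in kidney CD8 against spleen CD8, and 0 to 5 higher in the difference of organ effects. The ends above 0 came from leaving out kidney CD4 libraries. The shares of all genes that passed in those fits stand with each comparison above, and these counts are to be read beside them. With both kidney CD4 libraries left out, chosen after seeing the data, kidney CD8 against spleen CD8 gave 5 higher (4.4% of all genes) and 1 lower (2.47%). Uqcrc1 in kidney CD8 against kidney CD4 was 3.10 without kidney CD4 replicate 1 and turned to -1.31 without replicate 2. The fit on the compared libraries alone was not run for the difference of organ effects, which uses all groups.

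With the replicate block 0 genes passed in each comparison. The correlation of replicate differences between groups was from -0.43 to 0.27 over 4691 genes, so the numbers were not taken to pair the libraries, and the block ended the call of Gabpb1 in CD8 cells (adjusted p = 0.0678). The 2 libraries per group and the gap between kidney CD4 replicates limit every comparison that uses them.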
